A study of Mus musculus with 15 samples.

Results

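The BCL2 family decides whether the mitochondria of a stressed cell release their contents and start the caspase cascade. The 10 members described here were taken by symbol from the 21669 genes with a symbol in the deposited expression table, and all 10 were found. They are the antiapoptotic genes *Bcl2*, *Bcl2l1* (BCL-XL), and *Mcl1*, the effectors *Bax* and *Bak1*, and the BH3-only genes *Bcl2l11* (BIM), *Bbc3* (PUMA), *Pmaip1* (NOXA), *Bid*, and *Bad*. All cells came from wild-type female C57BL/6J mice. Naive B cells (nB) were CD43- cells purified by magnetic column from the spleen and were not stimulated. Activated B cells (actB, sorted as B220+GL7+CD138-) and plasmablasts (Pb, sorted as CD138+) came from CD43- B cells cultured for 3 days with LPS, IL2, and IL5 and with DMSO as the vehicle. The same 2 cell types were also sorted from cultures with GSK343, an inhibitor of the histone methyltransferase EZH2. For the Pb libraries with GSK343, however, the labels name IL6 where those of the other cultures name IL5, and the effects of the drug and of this cytokine cannot be told apart there if the labels hold. The comparisons ask how the family was expressed along B cell differentiation and how GSK343 altered it in actB and Pb.

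Antiapoptotic proteins hold the effectors BAX and BAK in check, and BH3-only proteins bind the antiapoptotic ones and so release the effectors, which then permeabilize the outer mitochondrial membrane. BIM is known as the main BH3-only protein that limits the life of lymphocytes, and MCL1 as the member on which long-lived plasma cells depend. Naive B cells, activated B cells, and plasma cells are known to lean on different antiapoptotic members.

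RNA-seq of poly(A) RNA was deposited as reads per 1000000 counted reads (RPM) for 3 libraries in each of the 5 groups, with 19421830 to 26307413 reads per library. The nB columns numbered 1 and 2 differed by less than the sampling noise (chi-square per degree of freedom of 0.00947, against at least 3.57 for every other pair of libraries of a group) and were counted as 1 library, so that n = 2 in nB and n = 3 elsewhere. Levels are given as RPKM, that is RPM per kilobase of the deposited gene length, and were tested by limma on log2(RPKM + 0.25). Fold changes are on this scale, all p-values adjusted by the Benjamini-Hochberg method are over the 11299 genes tested, and a gene was called at an adjusted p under 0.05. The libraries held 71 reads of *Bbc3* at the least and 23311 reads of *Bcl2l11* at the most among the members, and all 10 passed the filter on low values. The 4 B cell markers were detected in every group, and the summed RPKM of the plasmablast markers was 327 to 339 in actB with DMSO and 1394 to 1521 in Pb with DMSO. Markers of other cells were found mostly in nB, where the summed RPKM of 5 myeloid genes was 178 to 218 and that of 6 T cell genes 37.0 to 38.6, against 3.97 to 5.31 and 3.61 to 4.95 in actB with DMSO. That of 3 erythroid genes was 30.6 and 138 in the nB libraries and 9.17 to 12.9 in actB with DMSO. Their part in the differences from nB was not tested. The study names 3 biological replicates per cell type, and the sample titles number them m1 to m3 across the groups. Neither states whether they came from separate mice, so p-values measure the spread between these libraries. As bulk RNA was measured, a smaller number of cells that express a gene cannot be told apart from less RNA of that gene per cell.

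*Mcl1* was the most abundant member in every group, and the order below it differed among the cell types. In nB it was followed by *Pmaip1* at 62.9 ± 1.62 RPKM (SD, n = 2), *Bak1* at 46.9 ± 3.86, and *Bax* at 37.8 ± 0.567. *Bcl2* and *Bid*, at 18.2 RPKM each, did not differ beyond their spread, nor did *Bbc3* and *Bcl2l1* at the bottom of the order. In Pb with DMSO, *Bak1*, *Bcl2l1*, and *Bax* followed *Mcl1* at 53.6 ± 3.76, 52.5 ± 3.27, and 51.0 ± 5.05 RPKM (n = 3), which overlap, and *Bcl2* had become the lowest of the 10. Ranked among all genes tested, *Bcl2l1* stood at percentile 14.2 in nB and 87.9 in Pb with DMSO. *Bcl2* moved from percentile 65.4 to 33.5 and *Pmaip1* from 91.1 to 48.5.

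**Figure D1:**
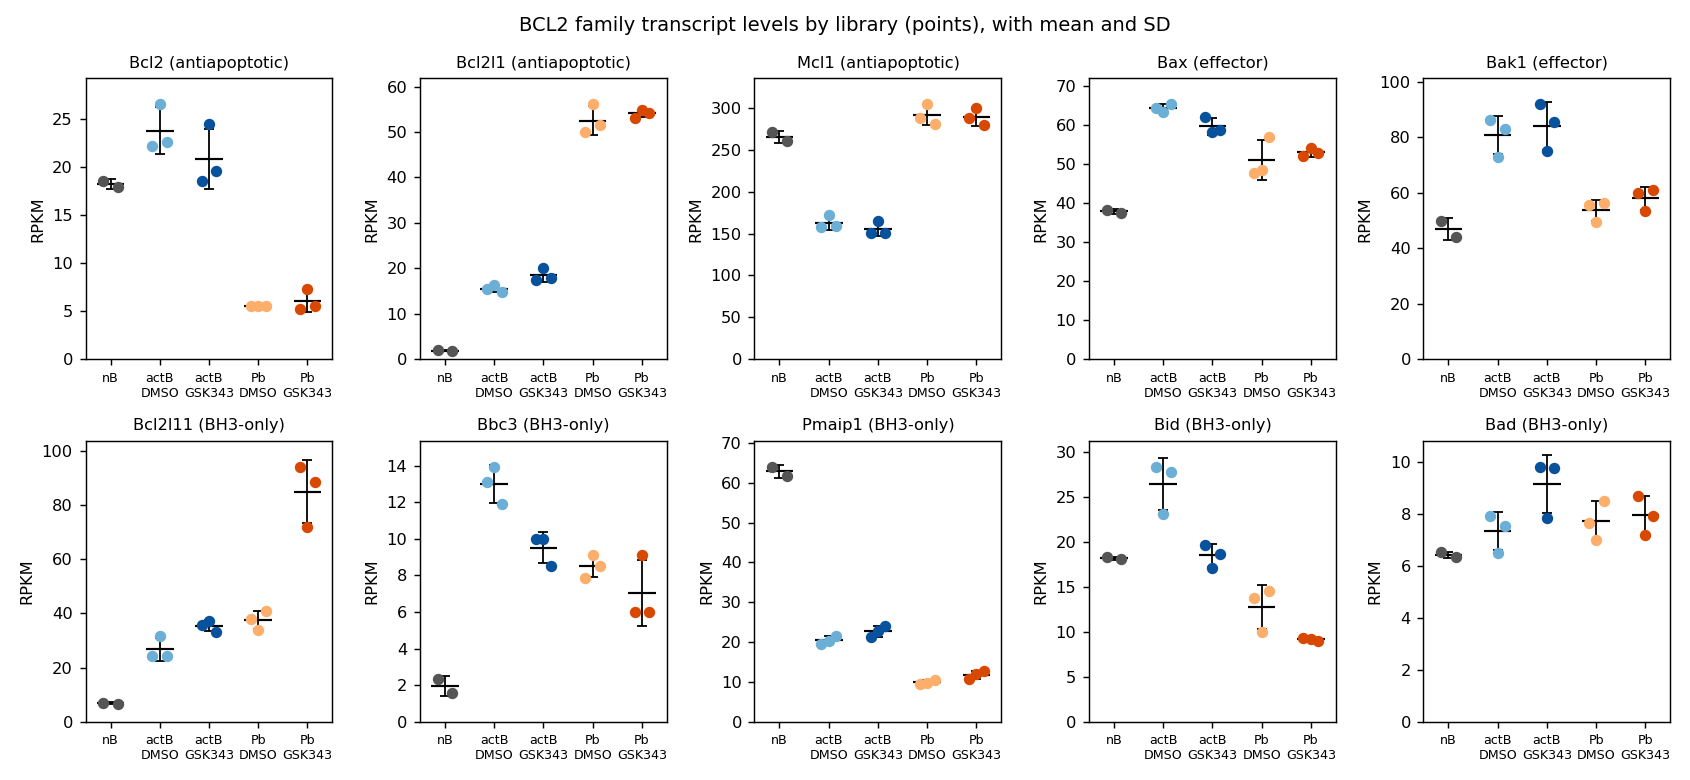
RPKM of the 10 members in each library (points), with the mean and SD of each group (bars). *Bcl2l1* was at 1.74 to 1.90 RPKM in nB and 49.9 to 56.2 in Pb with DMSO, and *Bcl2l11* was at 71.9 to 94.2 RPKM in Pb with GSK343, above every other library.

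From nB to actB with DMSO, 7 of the 10 members rose and 2 fell, where 40.9% of all genes tested were called higher and 36.3% lower. The median log2 fold change was 0.64 over the members and 0.05 over all genes. Of the calls over all genes, 53% were higher as tested. With quantile normalization, median scaling, or edgeR with TMM or RLE factors, 47.9% to 49.9% were. The count of members that rose was 6 with quantile normalization, median scaling, or edgeR and RLE factors. It was 7 with edgeR and TMM factors and 8 with the replicate block. From actB to Pb with DMSO, 3 members rose and 6 fell, against 27.3% of all genes called higher and 42.4% lower, with a median of -0.46 over the members and -0.12 over all genes. When each library was scaled to the same median, 49.4% of the calls over all genes were higher in Pb instead of 39.2%, and the members' 9 calls were kept. From nB to Pb directly, 4 rose and 3 fell by limma, where 39.5% of all genes were called higher and 41.1% lower. The count of members that rose was 5 with quantile normalization or edgeR and TMM factors and 7 with median scaling, edgeR and RLE factors, or the replicate number as a block, while 3 fell with each of these. These 3 comparisons share libraries and are given side by side. *Bad* was the member not called in the comparisons of actB with nB and of Pb with actB.

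**Figure D2:**
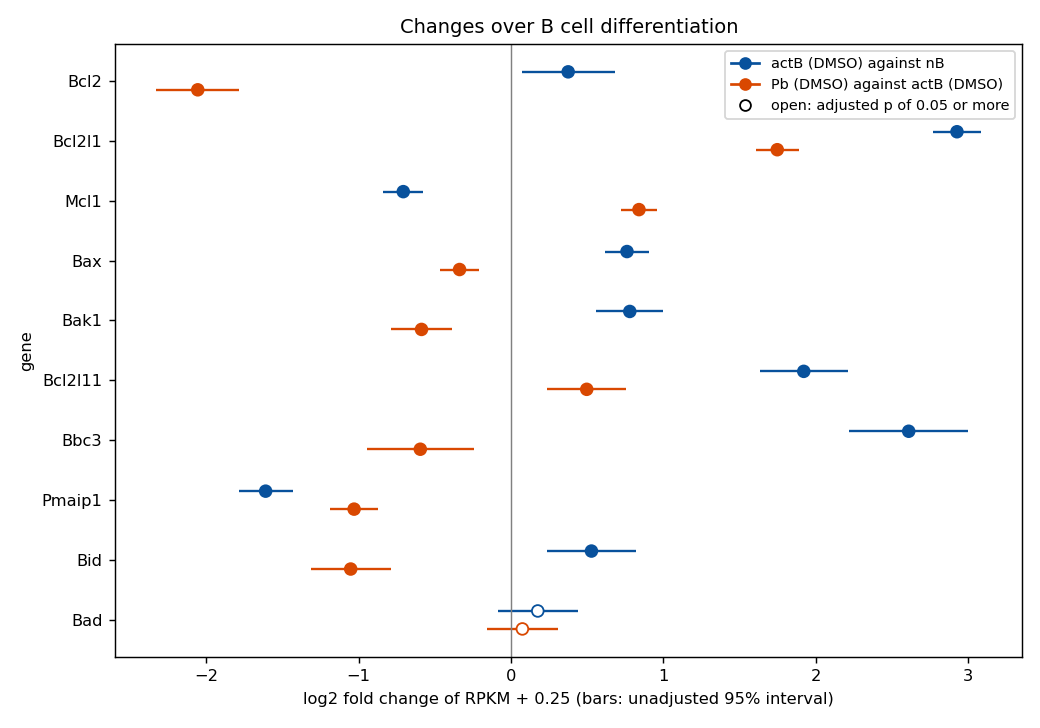
Log2 fold changes of the 10 members from nB to actB (blue) and from actB to Pb (orange), all with DMSO for cultured cells, with unadjusted 95% intervals. Filled points were called, and open points (*Bad*) were not; *Bcl2* lay at 0.38 and -2.05, and *Bcl2l1* at 2.93 and 1.75.

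Among the antiapoptotic genes, *Bcl2l1* rose at both steps. *Bcl2l1* (mm9 chromosome 2, 152593052 to 152657464, minus strand) encodes BCL-XL, which binds BAX, BAK, and BH3-only proteins. Its RPKM was 1.90 and 1.74 in the nB libraries, 15.3, 16.2, and 14.8 in actB with DMSO, and 49.9, 56.2, and 51.4 in Pb with DMSO. The 3 groups did not overlap. The log2 fold change was 2.93 (standard error 0.073, adjusted p = 5.15e-12) from nB to actB and 1.75 (0.065, adjusted p = 3.21e-10) from actB to Pb, a 25.5-fold rise from nB to Pb.

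*Bcl2* (chromosome 1, 108434755 to 108610851, minus strand), the founding survival gene of the family, took the other course. It was at 18.6 and 17.9 RPKM in nB, at 22.2, 26.6, and 22.6 in actB with DMSO, and at 5.47, 5.51, and 5.56 in Pb with DMSO. The Pb libraries lay far below those of nB and actB. The fall from actB to Pb was 4.15-fold (log2 fold change -2.05, standard error 0.12, adjusted p = 1.80e-08). The rise from nB to actB was small, at 0.38 on the log2 scale (standard error 0.14, adjusted p = 0.0265), and it depended on single libraries: the adjusted p was 0.0768 without the merged nB library, 0.118 without nB replicate 3, and 0.0855 without replicate 2 of actB. It was also lost with quantile normalization (0.0649), median scaling (0.0750), and edgeR with RLE factors (0.0686). A noncoding transcript on the opposite strand overlaps 7.76% of the exon bases of *Bcl2*, and it is not stated whether strand was used in counting.

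*Mcl1* (chromosome 3, 95462643 to 95467099, plus strand), whose protein turns over fast, fell on activation and was regained in Pb. Its RPKM was 271 and 260.5 in nB, 157, 172, and 159 in actB with DMSO, and 289, 305, and 281 in Pb with DMSO. The actB libraries lay below those of nB and Pb. *Mcl1* changed by -0.71 on the log2 scale from nB to actB (standard error 0.061, adjusted p = 3.21e-07) and by 0.84 from actB to Pb (0.055, adjusted p = 3.27e-08). Between nB and Pb, *Mcl1* was not called by limma (log2 fold change 0.13, 95% interval 0.00097 to 0.27, adjusted p = 0.0596). It was called higher in Pb by edgeR, with TMM (adjusted p = 0.0487) or RLE factors (0.0402). The same held for limma with median scaling (0.0343), with all 15 columns as deposited (0.0393), with the replicate block (0.00534), and without Pb replicate 3 (0.0482).

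The makeup of the transcripts of the antiapoptotic members differed by cell type. Summed over *Bcl2*, *Bcl2l1*, and *Mcl1*, the level was 286 ± 8.17 RPKM in nB, 202 ± 11.3 in actB with DMSO, and 349.8 ± 15.1 in Pb with DMSO. *Mcl1* made up 93.0% ± 0.00935, 80.6% ± 0.438, and 83.4% ± 0.421 of this sum in turn. The share of *Bcl2* was 6.37% ± 0.0123 in nB, 11.7% ± 0.517 in actB, and 1.58% ± 0.0709 in Pb. That of *Bcl2l1* was 0.635% ± 0.0216 in nB and 7.65% ± 0.181 in actB, and 14.5% to 15.3% in the Pb libraries. The ratio of *Bcl2l1* to *Bcl2* RPKM was thus 0.0971 to 0.102 in the nB libraries, 0.612 to 0.690 in actB, and 9.12 to 10.2 in Pb. The sum leaves out the *Bcl2a1* (A1) genes, which are also antiapoptotic. Of these, *Bcl2a1b* was at 69.9, 119, and 19.1 RPKM in nB, actB, and Pb with DMSO, and *Bcl2a1d* at 35.5, 104, and 18.5. They moved against the sum at both steps, so its course and the shares hold for *Bcl2*, *Bcl2l1*, and *Mcl1* only.

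**Figure D3:**
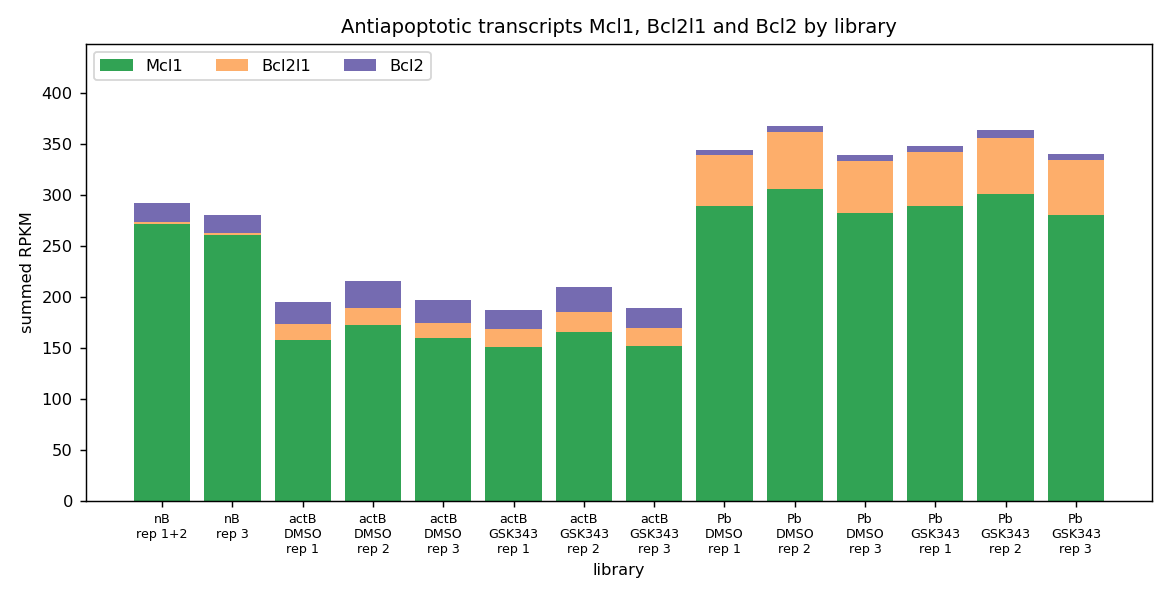
Summed RPKM of *Mcl1* (green), *Bcl2l1* (orange), and *Bcl2* (purple) in each of the 14 libraries. *Mcl1* fills most of every bar, *Bcl2l1* is barely visible in nB and makes up 14.5% to 15.3% of the sum in Pb with DMSO, and *Bcl2* makes up 1.503% to 1.643% there.

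Both effectors rose from nB to actB and fell back in part in Pb. *Bax* (chromosome 7, 52717065 to 52722268, minus strand), which moves from the cytosol to mitochondria when activated, was at 38.2 and 37.4 RPKM in nB, 64.2, 63.2, and 65.3 in actB with DMSO, and 47.6, 48.5, and 56.8 in Pb with DMSO. The actB libraries were the highest and the nB libraries the lowest, with no overlap. On the log2 scale, *Bax* changed by 0.76 (standard error 0.067, adjusted p = 3.77e-07) from nB to actB and -0.34 (0.060, adjusted p = 2.66e-04) from actB to Pb. *Bak1* (chromosome 17, 27156755 to 27165954, minus strand), which resides on the mitochondrial membrane, rose by 0.78 on the log2 scale (standard error 0.10, adjusted p = 1.49e-05) and then fell by 0.59 (0.091, adjusted p = 8.85e-05). In Pb with DMSO, *Bax* was still above nB (log2 fold change 0.42, adjusted p = 6.71e-05). *Bak1* was not called there by limma (0.19, 95% interval -0.03 to 0.41, adjusted p = 0.0973), but it was with median scaling (adjusted p = 0.0432), the replicate block (0.00835), or Pb replicate 2 left out (0.0491), and by edgeR with RLE factors (0.0483). The protein-coding gene *Ggnbp1* overlaps 14.83% of the exon bases of *Bak1* on the opposite strand.

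The BH3-only genes did not move as a group. *Bcl2l11* (chromosome 2, 127951774 to 127988283, plus strand) encodes BIM, which binds all antiapoptotic members. It was at 7.09 and 6.52 RPKM in nB, 24.1, 31.7, and 24.2 in actB with DMSO, and 37.9, 34.0, and 40.8 in Pb with DMSO. The groups did not overlap, and the level rose at each step. The log2 fold change of *Bcl2l11* was 1.92 (standard error 0.13, adjusted p = 4.10e-08) from nB to actB and 0.50 (0.12, adjusted p = 0.00249) from actB to Pb. The sum of *Bcl2*, *Bcl2l1*, and *Mcl1*, which leaves out the *Bcl2a1* genes, rose as well in Pb. The ratio of *Bcl2l11* RPKM to that sum was 0.0238 ± 0.000723 in nB, 0.131 ± 0.0136 in actB, and 0.108 ± 0.0142 in Pb with DMSO.

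*Bbc3* (chromosome 7, 16894965 to 16903554, plus strand) encodes PUMA, a target of p53. It rose from 2.33 and 1.57 RPKM in nB to 13.1, 13.95, and 11.9 in actB with DMSO, and was at 7.89, 9.13, and 8.54 in Pb with DMSO. The Pb libraries lay between those of the other groups. The rise was 6.10-fold, or 2.61 ± 0.18 (standard error) on the log2 scale (adjusted p = 3.78e-08). The fall that followed was 1.51-fold (-0.59 ± 0.16, adjusted p = 0.00538).

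*Pmaip1*, which encodes NOXA, a selective partner of MCL1, fell at both steps. It was at 64.1 and 61.8 RPKM in nB, 19.5, 20.4, and 21.5 in actB with DMSO, and 9.40, 9.73, and 10.6 in Pb with DMSO. No groups overlapped, and the fall was 6.23-fold from nB to Pb. On the log2 scale, *Pmaip1* changed by -1.61 (standard error 0.082, adjusted p = 2.07e-09) and then -1.03 (0.073, adjusted p = 7.41e-08). It lies on chromosome 18, and its exons are overlapped by no other gene.

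*Bid* (chromosome 6, 120841948 to 120866871, minus strand), whose protein is cleaved by caspase-8, was at 18.3 and 18.0 RPKM in nB, 28.4, 23.1, and 27.8 in actB with DMSO, and 13.7, 9.94, and 14.6 in Pb with DMSO. The Pb libraries were the lowest and the actB libraries the highest. *Bid* rose by 0.53 on the log2 scale (standard error 0.14, adjusted p = 0.00323) and then fell by 1.05 (0.12, adjusted p = 6.45e-06). Exons of *Bcl2l13* on the opposite strand overlap 17.69% of its exon bases. *Bcl2l13* itself was at 7.57, 8.95, and 9.49 RPKM in nB, actB, and Pb with DMSO. It was called higher from nB to actB, the step at which *Bid* rose. From actB to Pb, *Bcl2l13* was not called (log2 fold change 0.08, adjusted p = 0.2497). The part of its reads in the values of *Bid* was not tested.

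*Bad* (chromosome 19, 7016351 to 7026388, plus strand), which growth factor signals hold inactive by phosphorylation, moved little, with 6.34 to 6.51 RPKM in nB, 6.50 to 7.91 in actB with DMSO, and 7.01 to 8.51 in Pb with DMSO. Its log2 fold change was 0.18 from nB to actB (95% interval -0.09 to 0.44, adjusted p = 0.197) and 0.08 from actB to Pb (-0.16 to 0.31, adjusted p = 0.553). With the replicate block, *Bad* was called higher than in nB in actB (adjusted p = 0.0262) and in Pb (log2 fold change 0.27, adjusted p = 0.00414). Without Pb replicate 2 it was also called in Pb (adjusted p = 0.0397, against 0.0707 with it), as it was with quantile normalization (0.0235), median scaling (0.0304), the compared groups alone (0.0435), all 15 columns (0.0393), or edgeR and RLE factors (0.0481). *Gpr137* overlaps 25.76% of its exon bases on the opposite strand.

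Promoters were searched for 3 motifs on both strands, in the 250 bases before each RefSeq start (GRCm38.p6) of 9 members, all but *Pmaip1*. These were the FOXO motif GTAAACA, the STAT motif TTCNNNGAA, and the cAMP response element TGACGTCA, none of which holds another. Of 32851 mouse promoters of this length, 3.166% hold the first, 7.02% the second, and 1.546% the third. Counted by gene, with any promoter of the gene, the shares are 3.537%, 8.13%, and 1.769% of 27025 genes. Among all promoters of the members, a match was found only in the first of *Bcl2l11* and in the second of *Bbc3*. It was the FOXO motif in both, and BIM and PUMA are known as targets of FOXO factors. Both sequences are shown with the match in capitals (on the reverse strand, as TGTTTAC, in *Bbc3*). They belong to the member that changed most with GSK343, in Pb, and to the BH3-only gene with which it shares the match. Each has a single match in the mm9 genome, on the plus strand at chr2:127951524-127951773 and chr7:16895360-16895609.
Bcl2l11 promoter: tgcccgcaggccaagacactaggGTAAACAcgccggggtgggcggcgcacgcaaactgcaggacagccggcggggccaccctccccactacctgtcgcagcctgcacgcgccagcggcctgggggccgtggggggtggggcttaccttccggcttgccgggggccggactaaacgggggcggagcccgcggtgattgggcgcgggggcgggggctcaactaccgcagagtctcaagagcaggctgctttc
Bbc3 promoter: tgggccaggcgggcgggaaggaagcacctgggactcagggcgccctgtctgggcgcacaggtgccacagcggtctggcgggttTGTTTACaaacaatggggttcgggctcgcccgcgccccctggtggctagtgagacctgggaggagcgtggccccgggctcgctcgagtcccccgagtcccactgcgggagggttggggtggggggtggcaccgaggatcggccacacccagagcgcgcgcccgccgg
The match starts 227 bases before the start of *Bcl2l11* and 167 bases before that of *Bbc3*. It is a match of letters, and no binding was measured. *Foxo1*, the main FOXO gene of B cells, was at 79.9 ± 6.18 RPKM in nB, 25.8 ± 2.06 in actB with DMSO, and 22.9 ± 0.838 in Pb with DMSO, and fell from nB to Pb (log2 fold change -1.79, adjusted p = 2.03e-10). *Foxo3* was at 7.48, 3.57, and 6.02 RPKM and rose from actB to Pb (0.72, adjusted p = 3.88e-05).

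Of 16 further BCL2 family genes, 10 passed the filter on low values, of which 9 rose and 1 fell from nB to actB, where 40.9% of all genes were called higher and 36.3% lower. From actB to Pb, 3 rose and 5 fell, against 27.3% and 42.4% of all genes, and the median over the 10 was -0.67. The antiapoptotic *Bcl2a1* (A1) genes fell with *Bcl2*: *Bcl2a1b* had 119 ± 10.6 RPKM in actB and 19.1 ± 1.11 in Pb with DMSO (log2 fold change -2.62, adjusted p = 1.29e-07). *Bcl2a1d* and *Bcl2a1a* gave -2.48 and -2.35, but the *Bcl2a1* genes are near-identical copies and how reads were divided among them is uncertain. *Bmf*, a BH3-only gene, went from 23.5 RPKM in nB to 7.66 in actB (log2 fold change -1.60, adjusted p = 5.37e-06), and *Bnip3*, a mitophagy receptor, rose by 3.40 on the log2 scale (adjusted p = 2.43e-06).

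Downstream of mitochondria, 7 of 13 genes rose and 4 fell from nB to actB, and 3 rose and 7 fell from actB to Pb. Beside these counts, 40.9% of all genes were called higher and 36.3% lower at the first step and 27.3% and 42.4% at the second. *Cycs*, the gene of cytochrome c, rose by 1.497 on the log2 scale from nB to actB (adjusted p = 2.21e-07). *Casp6* fell at both steps (-1.23 and -0.57). The inhibitors *Birc3* and *Xiap* fell by 0.67 and 0.65 from actB to Pb (adjusted p = 2.34e-08 and 2.42e-07). Among 11 genes of p53, FOXO, and stress signaling, 7 rose and 3 fell from nB to actB, against the same 40.9% and 36.3% of all genes. The p53 targets *Cdkn1a* and *Zmat3* rose by 2.34 and 1.87 (adjusted p = 4.34e-07 and 3.60e-08), and *Phlda3*, with 3 to 4 reads per library in nB, was at 5.02 RPKM in actB. From actB to Pb, 5 rose, led by *Foxo3* and *Atf4* (0.57, adjusted p = 1.56e-04), and 3 fell, led by *Trp53* itself (-0.79, adjusted p = 5.68e-08), against 27.3% and 42.4%.

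GSK343 raised 2 members and lowered 1 in actB, where 8.2% of all genes tested were called higher and 2.16% lower. In Pb with GSK343, whose labels name IL6, 2 members were also called higher and 1 lower. There, 7.9% of all genes were called higher and 5.0% lower. The calls over all genes in actB depended on scaling: 79.1% of them were higher as tested, and 61.6% to 65.8% with quantile, median, TMM, or RLE scaling. The median log2 fold change of the members was -0.005 in actB and 0.05 in Pb, against 0.03 and 0.003 over all genes. With the replicate block, 5 members were called in actB, and 2248 genes instead of 1170. In Pb, 3 members were called either way, and 2626 genes instead of 1458. The transcript of the drug target *Ezh2* was not called in either cell type (log2 fold change 0.25 and 0.09), and the block called it higher in actB (adjusted p = 0.00304).

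**Figure D4:**
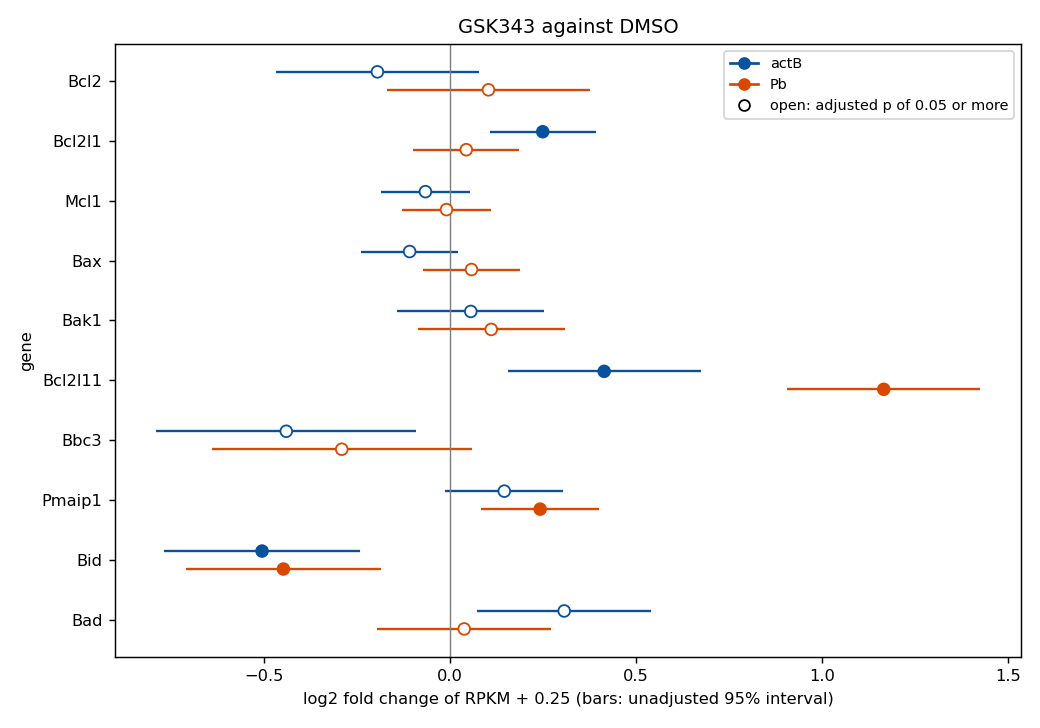
Log2 fold changes of the 10 members with GSK343 against DMSO in actB (blue) and Pb (orange), with unadjusted 95% intervals. Filled points were called. *Bcl2l11* in Pb, at 1.17, stands apart from all other points, which lie between -0.50 and 0.41.

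*Bcl2l11* was the member with the largest change. Its RPKM in Pb was 37.9, 34.0, and 40.8 with DMSO and 94.2, 71.9, and 88.7 with GSK343. The groups lay apart, the GSK343 libraries all higher, and replicate 2 was the lowest of each group. The level was 2.24-fold higher, or 1.17 ± 0.12 (standard error) on the log2 scale (adjusted p = 1.74e-04). The call held under all 18 alternatives tried (adjusted p up to 0.00694). In actB, *Bcl2l11* was at 24.1, 31.7, and 24.2 RPKM with DMSO and at 35.7, 37.3, and 33.2 with GSK343. These groups did not overlap either, though replicate 2 of the DMSO group came close to the lowest GSK343 library. The log2 fold change there was 0.41 (standard error 0.12, adjusted p = 0.0454). This call was lost under 10 of the 18 alternatives, among them leaving out replicate 1 or 3 of actB with DMSO (adjusted p = 0.159 and 0.153) or replicate 1, 2, or 3 of actB with GSK343 (0.110, 0.101, and 0.0771), while it held with the replicate block (0.0371). No other gene of the annotation overlaps its exons.

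Markers of cell state and of other cells moved in the same libraries. In Pb, the summed RPKM of 4 B cell markers was 626 to 639 with DMSO and 486 to 586 with GSK343, that of 3 naive B cell markers was 19.8 to 27.6 and 8.60 to 15.3, and that of 4 plasmablast markers was 1394 to 1521 and 1460 to 1548. Among them, the B cell factor *Pax5* was at 29.1 ± 3.36 RPKM in Pb with DMSO and 13.8 ± 4.65 with GSK343, and *Sdc1*, which encodes CD138, was at 29.7 ± 0.826 and 55.3 ± 3.09. The other plasmablast markers did not rise alike. *Irf4* was lower, at 372 ± 17.0 RPKM with DMSO and 313 ± 11.6 with GSK343. *Prdm1* was at 121 ± 4.96 and 117 ± 5.87, and *Xbp1* at 955 ± 55.7 and 1028 ± 38.3. In actB, the summed RPKM of 5 myeloid genes was 3.97 to 5.31 with DMSO and 7.89 to 13.6 with GSK343. Most of it came from *Itgam*, at 4.27 ± 0.664 and 9.95 ± 3.12 RPKM, and no read of *S100a8* was counted in any library of either group. The part of these markers in the changes of the members with GSK343 was not tested.

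The response of *Bcl2l11* was 0.75 larger in Pb than in actB on the log2 scale (standard error 0.17, 95% interval 0.38 to 1.12, unadjusted p = 7.64e-04), and the adjusted p of this difference was 0.116. It was 0.0645 with the replicate block, 0.0442 without replicate 2 of Pb with GSK343, and 0.0141 when replicate 2 was left out of every cultured group. Over all genes, 0.248% were called for this difference. None of the 10 members was called by limma or by edgeR, and 2 had an unadjusted p under 0.05, *Bcl2l11* and *Bcl2l1* (-0.21, unadjusted p = 0.0458). The Pb libraries with GSK343 are those labelled with IL6.

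The summed level of *Bcl2*, *Bcl2l1*, and *Mcl1* did not follow *Bcl2l11*, being 339 to 363 RPKM in Pb with GSK343 and 338 to 367 with DMSO. The ratio of *Bcl2l11* RPKM to that sum was 0.110, 0.0926, and 0.121 in Pb with DMSO and 0.271, 0.198, and 0.261 with GSK343. In actB it was 0.123 to 0.147 with DMSO and 0.176 to 0.191 with GSK343. The ratio was therefore higher with GSK343 in every library of both cell types than in any DMSO library of the same type.

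*Bid* was called lower in both cell types. Its RPKM in actB was 28.4, 23.1, and 27.8 with DMSO and 19.7, 17.1, and 18.7 with GSK343, and in Pb 13.7, 9.94, and 14.6 with DMSO and 9.32, 9.19, and 8.93 with GSK343. No groups overlapped, and replicate 2 with DMSO was the lowest of its group in both. *Bid* changed by -0.50 on the log2 scale in actB (standard error 0.12, adjusted p = 0.0208) and by -0.45 in Pb (0.12, adjusted p = 0.0297). The call was lost in 5 of 18 alternatives in actB and in 7 of 18 in Pb. In actB these included leaving out replicate 1 or 3 of the DMSO group (adjusted p = 0.0826 and 0.0764) or replicate 2 or 3 of the GSK343 group (0.0561 and 0.0594). In Pb they included leaving out replicate 1 or 3 of the DMSO group (0.113 and 0.116) or replicate 1, 2, or 3 of the GSK343 group (0.0763, 0.0630, and 0.0964). *Bcl2l13*, which overlaps *Bid* on the opposite strand, was not called with GSK343 (log2 fold change 0.10 in actB and 0.05 in Pb).

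Smaller calls were made for *Bcl2l1* and *Pmaip1*. In actB, *Bcl2l1* was at 15.3, 16.2, and 14.8 RPKM with DMSO and 17.5, 20.1, and 17.7 with GSK343, which did not overlap (log2 fold change 0.25, standard error 0.065, adjusted p = 0.0309). The call on *Bcl2l1* was lost in 9 of 18 alternatives, including edgeR and leaving out replicate 1 or 3 of the DMSO group (adjusted p = 0.0920 and 0.112) or replicate 2 or 3 of the GSK343 group (0.0820 and 0.0558). In Pb, *Bcl2l1* gave a log2 fold change of 0.04 (95% interval -0.10 to 0.19, adjusted p = 0.733). *Pmaip1* in Pb was at 9.40, 9.73, and 10.6 RPKM with DMSO and 10.6, 11.9, and 12.8 with GSK343, groups that almost touch (log2 fold change 0.24, standard error 0.073, adjusted p = 0.0481). This call was lost in 12 of 18 alternatives, including edgeR and leaving out replicate 1 or 2 of the DMSO group (adjusted p = 0.162 and 0.117) or replicate 2 or 3 of the GSK343 group (0.109 and 0.185). *Pmaip1* in actB gave 0.15 (-0.01 to 0.31, adjusted p = 0.241).

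The other members were not called with GSK343. *Mcl1* was the most tightly bounded, at -0.07 on the log2 scale in actB (95% interval -0.18 to 0.05) and -0.01 in Pb (-0.13 to 0.11). *Bax* gave -0.11 (-0.24 to 0.02) and 0.06 (-0.07 to 0.19), and *Bak1* 0.06 (-0.14 to 0.25) and 0.11 (-0.09 to 0.31). For *Bcl2* the intervals were wider, with -0.19 (-0.47 to 0.08) in actB and 0.10 (-0.17 to 0.38) in Pb. When replicate 2 was left out of every cultured group, *Bcl2* was called lower in actB (-0.23, adjusted p = 0.0311).

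*Bbc3* and *Bad* were called in actB only with some settings. *Bbc3* was at 13.1, 13.95, and 11.9 RPKM with DMSO and 10.02, 9.99, and 8.55 with GSK343 in actB, with no overlap, but at an adjusted p of 0.106 (log2 fold change -0.44, standard error 0.16). It was called with the replicate block (adjusted p = 0.0204). In Pb, *Bbc3* replicate 2 with GSK343, at 9.13 RPKM, lay apart from the other 2 at 6.01 and 5.99, and without it *Bbc3* was called lower (-0.49, adjusted p = 0.0393, against -0.29 and 0.280 with it). *Bad* was at 7.91, 6.50, and 7.55 RPKM with DMSO and 9.81, 7.84, and 9.74 with GSK343 in actB (0.31, standard error 0.11, adjusted p = 0.0910). The groups overlapped through replicate 2. *Bad* was called with the block (adjusted p = 0.00709) and without replicate 2 of the GSK343 group (0.0294).

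Of the 13 genes downstream of mitochondria, 1 rose in actB with GSK343, and 1 rose and 1 fell in Pb. Of all genes tested, 8.2% were called higher and 2.16% lower in actB, and 7.9% and 5.0% in Pb. The latter was *Birc3*, an inhibitor of apoptosis (log2 fold change -0.24, adjusted p = 0.00370).

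Of the 10 further family genes tested, none was called in actB by limma or edgeR, and 2 had an unadjusted p under 0.05. In Pb, 3 fell, where 5.0% of all genes were called lower: *Bcl2a1a* (-0.70, adjusted p = 0.0121), *Bcl2a1d* (-0.57, 0.0144), and *Bcl2l12* (-0.17, 0.0361). The first is lost without replicate 1 of Pb with DMSO (0.0507), the second also without replicate 1 of Pb with GSK343, and the third without any of 5 single Pb libraries (adjusted p up to 0.121 over the alternatives of *Bcl2l12* and 0.0653 over those of *Bcl2a1d*). The B cell markers given above also lay lower in Pb with GSK343, and their part in these falls was not tested.

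Of the 11 genes of p53, FOXO, and stress signaling, 4 rose in Pb with GSK343, where 7.9% of all genes were called higher, and 1 fell in actB, where 2.16% were called lower. *Cdkn1a* was at 12.4, 16.5, and 16.1 RPKM in Pb with DMSO and at 22.4, 28.5, and 26.2 with GSK343, with no overlap (log2 fold change 0.77, adjusted p = 0.0182). *Phlda3* and *Zmat3* rose by 0.63 and 0.52 (adjusted p = 0.0144 and 0.0116). *Mdm2*, the fourth, named after its values were seen, gave 0.21 (adjusted p = 0.0154). These calls rested on few libraries: the adjusted p of *Cdkn1a*, *Phlda3*, and *Zmat3* reached 0.0762, 0.0594, and 0.0515 with single libraries left out, replicate 1 of Pb with DMSO among them for each. For *Mdm2* it reached 0.0668, and 4 of the 6 Pb libraries ended the call when left out singly, all but replicate 3 with DMSO and replicate 2 with GSK343. *Ccng1* fell in actB (-0.25, adjusted p = 0.0169), with an adjusted p up to 0.0936 over the alternatives, and was lost without replicate 1 of actB with DMSO or replicate 1 or 3 with GSK343. *Foxo1* gave 0.23 in actB and 0.21 in Pb, not called (adjusted p = 0.0545 and 0.0654), and *Trp53* gave -0.17 and -0.07. In Pb, 7 of the 11 genes were not called, *Ccng1* and *Trp53* among them. The p53 target *Bbc3*, one of the members, was not called there either (log2 fold change -0.29).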

How the data were processed

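RNA-seq of 15 mouse libraries in 5 groups was used. Per the methods and labels, the authors mapped reads to mm9 with TopHat2, used GenomicRanges to count reads that overlap the exons of a gene, and deposited RPM, in a table named for RPKM. All values (100%) lie within 0.1 read of a whole multiple of 1 read, from which reads were recovered. RPM were divided here by the deposited length in kilobases. A count of 0 allows 3 reads, or 0.114 to 0.154 RPM, for counting error only. Genes without a symbol, 92 in all, which took no more than 0.0905% of any library's reads, were left out.

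Genes at 1 RPKM or more in 3 or more of the 15 columns (11299) entered limma 3.58.1 (R 4.3.3, trended eBayes) on log2(RPKM + 0.25). The fit held all 14 libraries, with 9 residual degrees of freedom, and tests were two-sided. The study's own test, edgeR, was run as edgeR 4.0.16 quasi-likelihood on recovered reads (11146 genes), as an alternative. Both were tested on simulated reads of GSK343 against DMSO in Pb (11299 genes, 200 of them changed 2-fold). There, limma called 98.5% of the changed genes and edgeR 100%, and 1.99% and 5.66% of their calls were of unchanged genes. The simulation drew every group from the mean of Pb with DMSO, with a fixed dispersion and no replicate effect. Its rates therefore do not carry over to smaller changes or to the spread of the real libraries. Replicate numbers were not in the main fit of the real data. Among cultured samples, deviations from group means correlated within a number (r = 0.158 to 0.502 for number 1, 0.435 to 0.713 for number 2, 0.219 to 0.356 for number 3, 6 pairs each). The 36 pairs of different numbers gave -0.603 to 0.370. Only number 2 lay wholly above these, so a pairing of numbers 1 and 3 is less clear. A fit with the number as a block was also run, with the merged nB library given to numbers 1 and 2 in equal parts. The members and gene lists were chosen with earlier results of these data known. All 10 members were named in every comparison, and from each further list up to 3 called genes with the largest fold change and at least 1 RPKM in a compared group. Gene positions and overlaps are from the mm9 annotation (GENCODE vM1). Intervals of fold changes are 95% and unadjusted. Results for some genes of these lists are not reported here.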

Additional observations from a re-analysis of the deposited data

How the results depend on the processing

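Directions did not reverse in any called result. Of 1120 values of members under alternatives, 1041 kept their side of the threshold, 49 lost it, and 30 gained it, and of 632 values of the other named genes 25 lost it and 4 gained it. In the comparisons of actB and Pb with nB and with each other, counts of calls stayed within 1.5 times: leaving out each replicate gave 7982 to 8747, 8463 to 8932, and 7340 to 7788 genes and 8 to 9, 7 to 9, and 9 to 9 members. Those with GSK343 were less stable. In actB, 1170 genes and 3 members were called, against 386 and 0 with the compared groups alone, 2248 and 5 with the replicate block, and 608 to 1363 and 0 to 3 on leaving out each replicate. There, 1 member was called with quantile normalization, with median scaling, or with edgeR and RLE factors, and 5 with replicate 2 left out of every cultured group, an alternative added after the data were seen. In Pb, 1458 genes and 3 members were called, against 2626 genes with the replicate block, 1 member with no filter on low values or with the compared groups alone, and 690 to 1304 genes and 1 to 2 members on leaving out each replicate. For the difference of the effects, 28 genes and 0 members were called, against 18 genes with quantile normalization, 4 with the compared groups alone, 139 with the replicate block, 48 with all 15 columns, 146 genes and 1 member with replicate 2 left out of every cultured group, and 0 to 58 genes and 0 to 1 members on leaving out each replicate. Of these 28, 11 were higher in Pb, against 21 of 33 with median scaling. Single libraries that end a member's call are named beside it. Beyond the fits with fewer samples, the causes were not tested. Pairing by the replicate block changed no other call of a member than those given above. On RPM in place of RPKM, values set across genes moved, since the genes differ in length. The share of *Bcl2* in the antiapoptotic sum was 15.9% instead of 6.37% in nB and 3.998% instead of 1.58% in Pb with DMSO. The ratio of *Bcl2l1* to *Bcl2* in Pb with DMSO was 5.07 instead of 9.52. Other shares moved less: in nB, that of *Mcl1* was 83.2% instead of 93.0% and that of *Bcl2l1* 0.845% instead of 0.635%. The ratio of *Bcl2l11* to the sum was 0.309 to 0.364 in actB and 0.261 to 0.340 in Pb with DMSO, which overlap, while on RPKM the Pb libraries lay below those of actB. Depth limits *Bbc3* in nB most, at 71 reads in a library.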
